A study of Mus musculus with 31 samples.

Results

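The genes described here were 7 genes of blood vessel endothelium, Pecam1, Cdh5, Kdr, Tek, Vwf, Cldn5 and Esam, and 3 genes of leukocyte adhesion, Sele, Selp and Vcam1. They were chosen by name, with no threshold on their values, and were 10 of the 46072 genes listed in every expression table. The question put to them was whether irradiated tumors changed in their vessel content, in the adhesion molecules that their vessels display, or in neither. The study followed neutrophil entry into tumors after radiotherapy (RT), and messenger RNA was sequenced from whole tumors of 31 mice, 1 library per mouse.

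RM-9 is a mouse prostate cancer line and MC-38 a mouse colon adenocarcinoma line (RM9 and MC38 in the labels). Cells of either line were grown under the skin of the right hind leg of wild-type male C57BL/6 mice (C57BL/6J in the study's methods), bought at 6 to 7 weeks of age, until tumors measured about 8 mm. Irradiated tumors received a single local dose of 15 Gy and were taken 3 h, 12 h or 24 h later. Each model had 4 groups, Control, RT 3 h, RT 12 h and RT 24 h, with 4 mice in each except RM-9 RT 24 h, which had 3. The 4 Control mice of a model were not irradiated, were labelled 3 h, and served all 3 times, so age or tumor growth and time after RT cannot be told apart at 12 h and 24 h, and the 3 comparisons of a model share their controls. The libraries of the 2 models were numbered as separate sets, and differences between models cannot be told apart from differences between those sets. Each model is a single cell line in a single mouse strain.

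Endothelial cells line the blood vessels and hold on to each other through Pecam1 (CD31), Cdh5 (VE-cadherin), Cldn5 (claudin-5) and Esam, which are junction proteins. Kdr (VEGFR2) and Tek (Tie2) are their receptors for VEGF-A and for the angiopoietins, and Vwf is the clotting factor they store in granules. Circulating leukocytes are first slowed by the selectins, E-selectin (Sele) and P-selectin (Selp), and then held by immunoglobulin-type ligands such as Vcam1, which binds the integrin formed by Itga4 and Itgb1. Sele is made by activated endothelium and is induced through NF-kB. Selp is made by endothelium and by platelets, and Vcam1 is also made by macrophages and stromal cells, so a change of Vcam1 in whole tumor RNA is not by itself a change in vessels.

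The deposited unit was TPM, the length-corrected share of a gene among the transcripts of a library. Estimated depth was 23000000 to 29400000 reads in RM-9 and 21400000 to 25500000 reads in MC-38 libraries, and mitochondrially encoded genes took 47.3 to 57.2% of the TPM in RM-9 against 22.5 to 40.6% in MC-38. Because TPM is a share, all other genes read higher where that share is lower. The median log2 difference over all genes tested was 0.63 between the control groups. Within a model it was 0.19, 0.33 and 0.22 at 3, 12 and 24 h in MC-38 against 0.06, -0.19 and -0.04 in RM-9. The part of the mitochondrial share in these shifts of the median gene was not tested. Called results of the 10 genes and the counts of each list are therefore also given after median-ratio scaling, which sets the typical gene level with itself across libraries. Summed TPM of 6 skeletal muscle genes ranged from 2.83 to 9822 over the libraries, and 3 RM-9 and 5 MC-38 libraries were above 1000. Of 6 p53 target genes, Cdkn1a rose at 3 h by 0.96 in RM-9 and 0.80 in MC-38 on the log2 scale (limma, adjusted p = 0.0106 and 0.0195) and Mdm2 by 1.27 and 1.11 (adjusted p = 0.0150 and 0.0121). Of the 6, 4, 2 and 0 were higher in RM-9 and 2, 3 and 2 in MC-38 at 3, 12 and 24 h. After median-ratio scaling these were 5, 2 and 0 and 1, 1 and 2, and Cdkn1a in MC-38 at 3 h was at 0.58 and did not pass (limma, adjusted p = 0.0821).

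Sele and Selp lie in the same direction on chromosome 1. In the files, which use GRCm38 coordinates, Sele spans chr1:164048234-164057677 and Selp chr1:164115264-164150026, both on the + strand, and 57.6 kb separate the end of Sele from the start of Selp. Their promoters, from 250 bases before to 50 after the transcript start, are shown because these were the 2 genes that differed most between the models in the downward direction. The sequences are those of RefSeq on GRCm38.p6, chr1:164047984-164048283 for Sele and chr1:164115014-164115313 for Selp, both + strand, and 5 of the 10 genes had an entry. Capitals mark matches, on either strand, to 3 motifs. The NF-kB type motif began with GGG, went on with any 5 bases and ended with CC. The motif of the AP-1 type was TGACTCA. The TATA box was searched as TATAAA.
Sele: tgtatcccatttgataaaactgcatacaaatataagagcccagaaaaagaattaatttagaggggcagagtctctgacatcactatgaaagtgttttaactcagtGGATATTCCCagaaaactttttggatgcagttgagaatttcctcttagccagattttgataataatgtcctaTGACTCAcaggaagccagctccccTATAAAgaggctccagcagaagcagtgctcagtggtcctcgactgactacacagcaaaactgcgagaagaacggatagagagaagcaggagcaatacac
Selp: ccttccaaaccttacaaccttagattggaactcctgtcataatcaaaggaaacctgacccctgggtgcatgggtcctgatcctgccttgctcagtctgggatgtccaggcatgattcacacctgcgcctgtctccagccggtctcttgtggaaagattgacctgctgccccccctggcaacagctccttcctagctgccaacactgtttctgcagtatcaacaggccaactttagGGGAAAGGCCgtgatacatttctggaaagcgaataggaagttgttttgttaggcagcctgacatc
The Sele promoter held 1 match to each of the 3 motifs, and the matches did not overlap. The Selp promoter held 1 match of the NF-kB type and none to the other 2. Of 32851 promoters of the same length, 50.8% held the NF-kB type motif, 5.20% the AP-1 type motif and 13.6% the TATA box, so the NF-kB type match is a common one, and a match is only a run of letters and not a bound site.

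The untreated tumors of the 2 models differed most in the adhesion genes, and in opposite directions. RM-9 tumors had higher Sele and Selp, and MC-38 tumors had higher Vcam1, while 4 of the 7 vessel genes were higher in MC-38. In TPM, the 4 RM-9 Control mice had Sele at 4.31, 3.39, 3.77 and 2.93, and the 4 MC-38 Control mice at 0.331, 0.265, 0.145 and 0.461. Every RM-9 mouse was thus above every MC-38 mouse. The ratio of the group means was 12.0, and the log2 difference, MC-38 minus RM-9, was -2.36 ± 0.20 (SE; limma, adjusted p = 3.27e-11). The MC-38 values rested on an estimated 7 to 28 reads per library over the 2912 bases of the single annotated transcript, against 238 to 391 in RM-9. In whole-tumor RNA, fewer cells of a type and less RNA of a gene per cell cannot be told apart.

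Selp was at 8.50, 7.91, 9.74 and 6.49 TPM in RM-9 Control and at 2.35, 0.743, 0.312 and 2.03 TPM in MC-38 Control. The groups did not overlap, and in MC-38 the mice split into a pair near 2 TPM and a pair below 1 TPM. The RM-9 mean was 6.01 times the MC-38 mean (log2 difference -2.38 ± 0.29; limma, adjusted p = 3.71e-08). The 2 MC-38 mice with the higher Selp, 1 and 4, were also the 2 with the most skeletal muscle RNA, at 9822 and 1600 TPM against 17.4 and 120 in mice 2 and 3. Summed TPM of 9 platelet genes, 3 of them at 0 in every MC-38 Control library and 4 in every RM-9 Control library, was 43.3 to 67.9 in RM-9 Control and 21.5 to 50.7 in MC-38 Control. The part of platelet RNA in the Selp difference was not tested.

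Vcam1 was the reverse. It stood at 5.99, 5.91, 4.95 and 7.91 TPM in RM-9 Control and at 55.1, 56.4, 67.1 and 47.3 TPM in MC-38 Control, with no overlap. The MC-38 mean was 9.13 times that of RM-9 (log2 difference 3.10 ± 0.19; limma, adjusted p = 7.99e-14). The 6 macrophage genes, which mark another source of Vcam1, summed to 810 to 1292 TPM in MC-38 Control and 365 to 581 TPM in RM-9 Control, and their part in the Vcam1 difference was not tested.

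**Figure D1:**
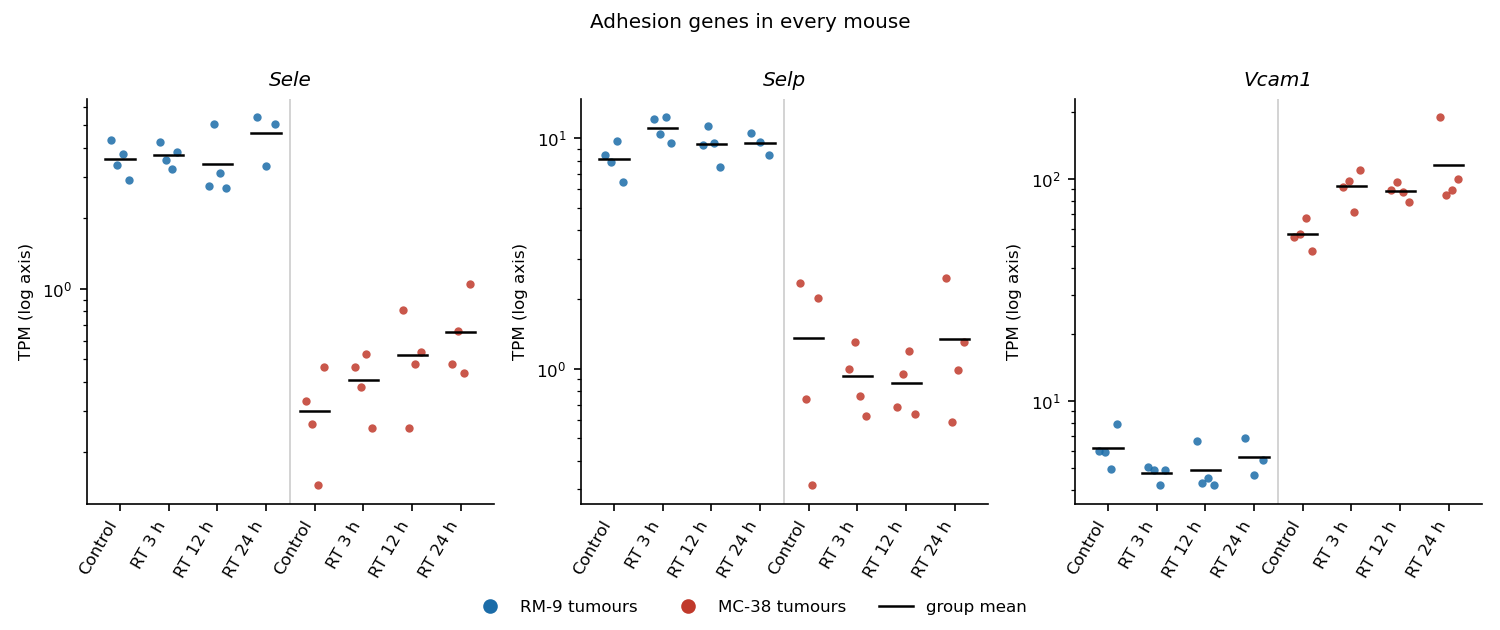
TPM of Sele, Selp and Vcam1 (log axes) in every mouse of the 8 groups; dots are mice, blue for RM-9 and red for MC-38, and bars are group means. Every RM-9 mouse lies above every MC-38 mouse for Sele and Selp and below every one for Vcam1, and the MC-38 RT 24 h mouse at 191 TPM of Vcam1 stands apart from its group.

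Among the junction genes, Pecam1 was at 11.7, 8.40, 7.68 and 9.51 TPM in RM-9 Control and 21.4, 17.0, 16.2 and 22.9 TPM in MC-38 Control. Cdh5 was at 7.43, 4.99, 5.61 and 6.29 TPM against 20.0, 11.6, 15.1 and 16.7 TPM. Neither gene overlapped between the models, and the MC-38 means were 2.08 and 2.61 times those of RM-9 (log2 differences 1.02 ± 0.13 and 1.30 ± 0.16; limma, adjusted p = 4.92e-08 and 3.37e-08). Esam, at 6.37, 4.88, 4.76 and 6.35 TPM against 10.2, 6.74, 7.28 and 9.34 TPM, was 1.501 times as high in MC-38 (log2 difference 0.54 ± 0.19, adjusted p = 0.0114). Cldn5, which seals the junctions, averaged 1.82 ± 0.39 TPM in RM-9 and 2.77 ± 1.01 TPM in MC-38 (SD, n = 4 each), overlapped, and missed the threshold (log2 difference 0.46, adjusted p = 0.0827).

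Of the receptors, Kdr was at 2.20, 1.33, 1.58 and 1.82 TPM in RM-9 Control and 3.59, 3.76, 3.70 and 4.89 TPM in MC-38 Control, again without overlap (log2 difference 1.01 ± 0.15; limma, adjusted p = 7.35e-07). Tek averaged 0.638 ± 0.181 TPM in RM-9 and 1.06 ± 0.57 TPM in MC-38 (SD, n = 4 each; log2 difference 0.39, adjusted p = 0.114). Vwf averaged 1.11 ± 0.23 and 1.10 ± 0.70 TPM (log2 difference -0.10, adjusted p = 0.667). Both overlapped between the models, and in MC-38 both ran high in mice 1 and 4, at 1.78 and 1.26 TPM of Tek and 2.05 and 1.21 TPM of Vwf, against 0.572 and 0.618, and 0.663 and 0.482, in mice 2 and 3.

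In all, 7 of the 10 genes passed the threshold in this comparison, 5 higher and 2 lower in MC-38, where 75.4% of all 15358 genes tested passed, 64.7% higher and 10.7% lower. The same 7 genes did not overlap between the groups, as was the case for 60% of all genes, so the count itself does not set these genes apart from the background. The median of the 7 vessel genes was 0.54, below the 0.63 of all genes. Under median-ratio scaling Sele (-2.80), Selp (-2.90), Vcam1 (2.46), Cdh5 (0.67) and Kdr (0.46) passed (limma, adjusted p = 6.93e-13, 7.33e-09, 3.21e-10, 0.00477 and 0.0209), Pecam1 was at 0.37 (adjusted p = 0.0642), and Esam turned to -0.08 (adjusted p = 0.766). That made 3 higher and 2 lower, where 65.6% of all genes passed, 33.4% higher and 32.2% lower. Without the libraries over 1000 TPM of muscle genes, which leaves 2 Control mice per model, Esam was at 0.32 (adjusted p = 0.285) and Vwf passed as lower in MC-38 (-0.61, adjusted p = 0.0116).

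Set against vessel content within each library, the selectins differed further between the models. Per 100 TPM of Pecam1, RM-9 Control mice had 30.7 to 49.1 TPM of Sele and 68.3 to 127 TPM of Selp, and MC-38 Control mice had 0.893 to 2.02 and 1.93 to 10.98. For Vcam1 the ranges were 51.2 to 83.1 in RM-9 and 207 to 414 in MC-38. Ratios within a library do not depend on its scaling, and none of the 3 ranges overlapped. Pecam1 is itself also carried by platelets and some leukocytes.

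**Figure D2:**
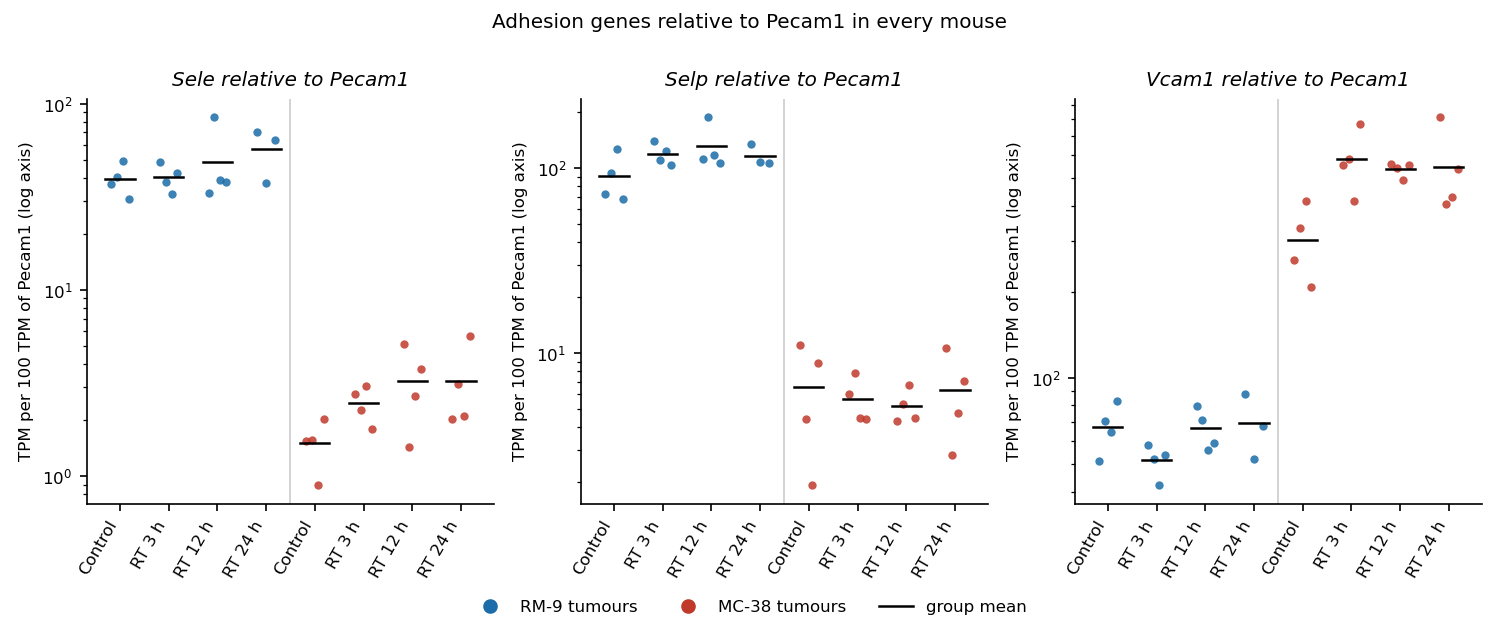
Sele, Selp and Vcam1 in TPM per 100 TPM of Pecam1 (log axes) in every mouse; dots are mice and bars group means. The RM-9 values of Sele (30.7 to 84.7 over the 15 mice) and the MC-38 values (0.893 to 5.62 over the 16 mice) do not meet, and Vcam1 per Pecam1 is highest in the irradiated MC-38 mice.

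In RM-9 tumors none of the 10 genes passed the threshold at any time after RT. At 3 h, Selp was at 12.1, 10.4, 12.4 and 9.53 TPM, against the 6.49 to 9.74 TPM of the controls. The lowest irradiated mouse lay just under the highest control, the mean went from 8.16 ± 1.35 to 11.1 ± 1.36 TPM (SD, n = 4 each), and the log2 difference of 0.43 ± 0.14 had an adjusted p of 0.129 (limma) and an exact permutation p of 0.0571 (two-sided). With 3 of 4 irradiated mice above all controls, Selp had the smallest adjusted p of the 10 genes in RM-9 at 3 h. Vcam1 at 3 h was at 5.03, 4.92, 4.19 and 4.90 TPM, so that 3 of the 4 controls lay above all irradiated mice, with a log2 difference of -0.33 ± 0.16 (limma, adjusted p = 0.235). Sele overlapped with its controls at every time, at 3.25 to 4.23, 2.69 to 5.08 and 3.35 to 5.42 TPM at 3, 12 and 24 h.

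At 12 h the 7 vessel genes of RM-9 had log2 differences from -0.42 to -0.13, with a median of -0.30 where all genes tested had -0.19. Kdr was at 1.34, 0.932, 1.27 and 1.11 TPM, against 1.33 to 2.20 in the controls, and 3 of 4 irradiated mice were below the lowest control. Its log2 difference was -0.42 ± 0.15 (limma, adjusted p = 0.0864), and that of Pecam1 was -0.31 ± 0.13 (adjusted p = 0.110). After median-ratio scaling these were -0.25 and -0.11. RT 12 h mouse 2 had the lowest value of all 7 vessel genes in its group and the highest Sele (5.08 TPM) and Selp (11.3 TPM).

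At 24 h, Esam was at 4.05, 4.57 and 4.12 TPM in the 3 RM-9 mice, all below the 4.76 TPM of the lowest control, and the exact permutation p was 0.0571 (two-sided, 35 assignments). It was the only 1 of the 10 genes whose groups did not overlap in any RM-9 comparison, where 4.25% of all genes at 24 h did not. Its log2 difference was -0.35 ± 0.20, and the smallest adjusted p of the 10 genes was 0.999 (limma). Of all 14013 genes tested in RM-9, 0.228% passed at 3 h, 8.37% at 12 h and 0% at 24 h, and after median-ratio scaling, which called none of the 10 either, 2.73%, 0.136% and 0%. The groups of 12.8% and 19.7% of all genes did not overlap at 3 h and 12 h. At an unadjusted p under 0.05 there were 3060, 4344 and 681 genes, among them 1, 2 and 1 of the 10.

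In MC-38 tumors Vcam1 stood higher after RT, and at 24 h Cdh5 and Kdr did too, while neither selectin gene passed the threshold. Vcam1 at 3 h was at 92.7, 97.8, 71.4 and 110 TPM, all above the highest control at 67.1 TPM. The groups of 8.18% of all genes did not overlap at this time, and the log2 difference of 0.71 ± 0.21 did not pass (limma, adjusted p = 0.141; exact permutation p = 0.0286, the smallest that 4 mice against 4 allow). None of the 10 genes passed at 3 h, when 0.0637% of the 15699 genes did (none and 0.643% after median-ratio scaling). Here 3130 genes, and 1 of the 10, had an unadjusted p under 0.05.

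At 12 h Vcam1 was at 89.5, 96.8, 87.7 and 78.9 TPM, again with every irradiated mouse above every control. The mean was 1.56 times that of the controls, and the log2 difference of 0.65 ± 0.21 passed (limma, adjusted p = 0.0323), as did 31.1% of all genes (28.5% higher and 2.59% lower), and the groups of 36.5% of all genes did not overlap. Vcam1 was the only 1 of the 10 to pass. The call rested on single libraries: without Control mouse 1 or 4, or without any 1 of the 4 irradiated mice, the adjusted p of Vcam1 was 0.0579 to 0.0811. Under median-ratio scaling Vcam1 was at 0.30 (adjusted p = 0.410), close to its deposited value less the 0.33 of the median gene, and Esam passed instead, as lower (-0.78, adjusted p = 0.0375), as did 9.82% of all genes, with 6.32% higher and 16.1% in all.

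At 24 h Vcam1 was at 191, 84.9, 89.3 and 100 TPM. Mouse 1 was far above the other 3, and those 3 were at the level of the 3 h and 12 h groups. The mean was 2.06 times that of the controls and the log2 difference 0.96 ± 0.21 (limma, adjusted p = 0.00825). Vcam1 passed in each of the 8 fits that left out 1 mouse of these groups, with a lowest difference of 0.70 and a highest adjusted p of 0.0274. Mouse 1 also carried 3308 TPM of muscle genes, and without the libraries over 1000 TPM, mouse 1 and Controls 1 and 4 among them, the difference was 0.56 (adjusted p = 0.0706). The sum of 6 macrophage genes was 810 to 1292 TPM in the controls, 292 to 696 TPM at 12 h and 647 to 808 TPM at 24 h.

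Cdh5 at 24 h was at 26.6, 27.7, 23.6 and 23.0 TPM, above all controls (11.6 to 20.0 TPM), with a mean 1.59 times theirs and a log2 difference of 0.67 ± 0.17 (limma, adjusted p = 0.0187). Without RT 24 h mouse 2 its adjusted p was 0.0546. Kdr was at 8.16, 7.70, 5.29 and 6.25 TPM, above all controls (3.59 to 4.89 TPM), with a mean 1.72 times theirs and a log2 difference of 0.70 ± 0.15 (adjusted p = 0.00803). Kdr passed in each of the 8 fits that left out 1 mouse of these groups. These genes were the VE-cadherin of the junctions and the VEGF receptor that associates with it at the membrane.

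The other 5 vessel genes did not pass. Pecam1 at 24 h was at 23.4, 20.997, 20.8 and 18.6 TPM, within reach of the controls (16.2 to 22.9 TPM; log2 difference 0.12, limma adjusted p = 0.544), and Esam at 10.8, 7.41, 10.4 and 7.41 TPM likewise (0.10, adjusted p = 0.755). The differences were 0.35 for Cldn5, -0.24 for Tek and -0.18 for Vwf, all with overlapping groups. In all, 3 of the 10 genes passed at 24 h, all higher, where 13.8% of all genes passed (13.2% higher and 0.548% lower), and 3 did not overlap, where 15.7% did not. Under median-ratio scaling, where 16% of all genes passed (7.81% higher and 8.14% lower), none of the 10 did: Vcam1 was at 0.70 (adjusted p = 0.0685), Kdr at 0.46 (0.0811) and Cdh5 at 0.41 (0.244), and a gene-by-gene test of Cdh5 or Kdr against Pecam1 was not made.

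**Figure D3:**
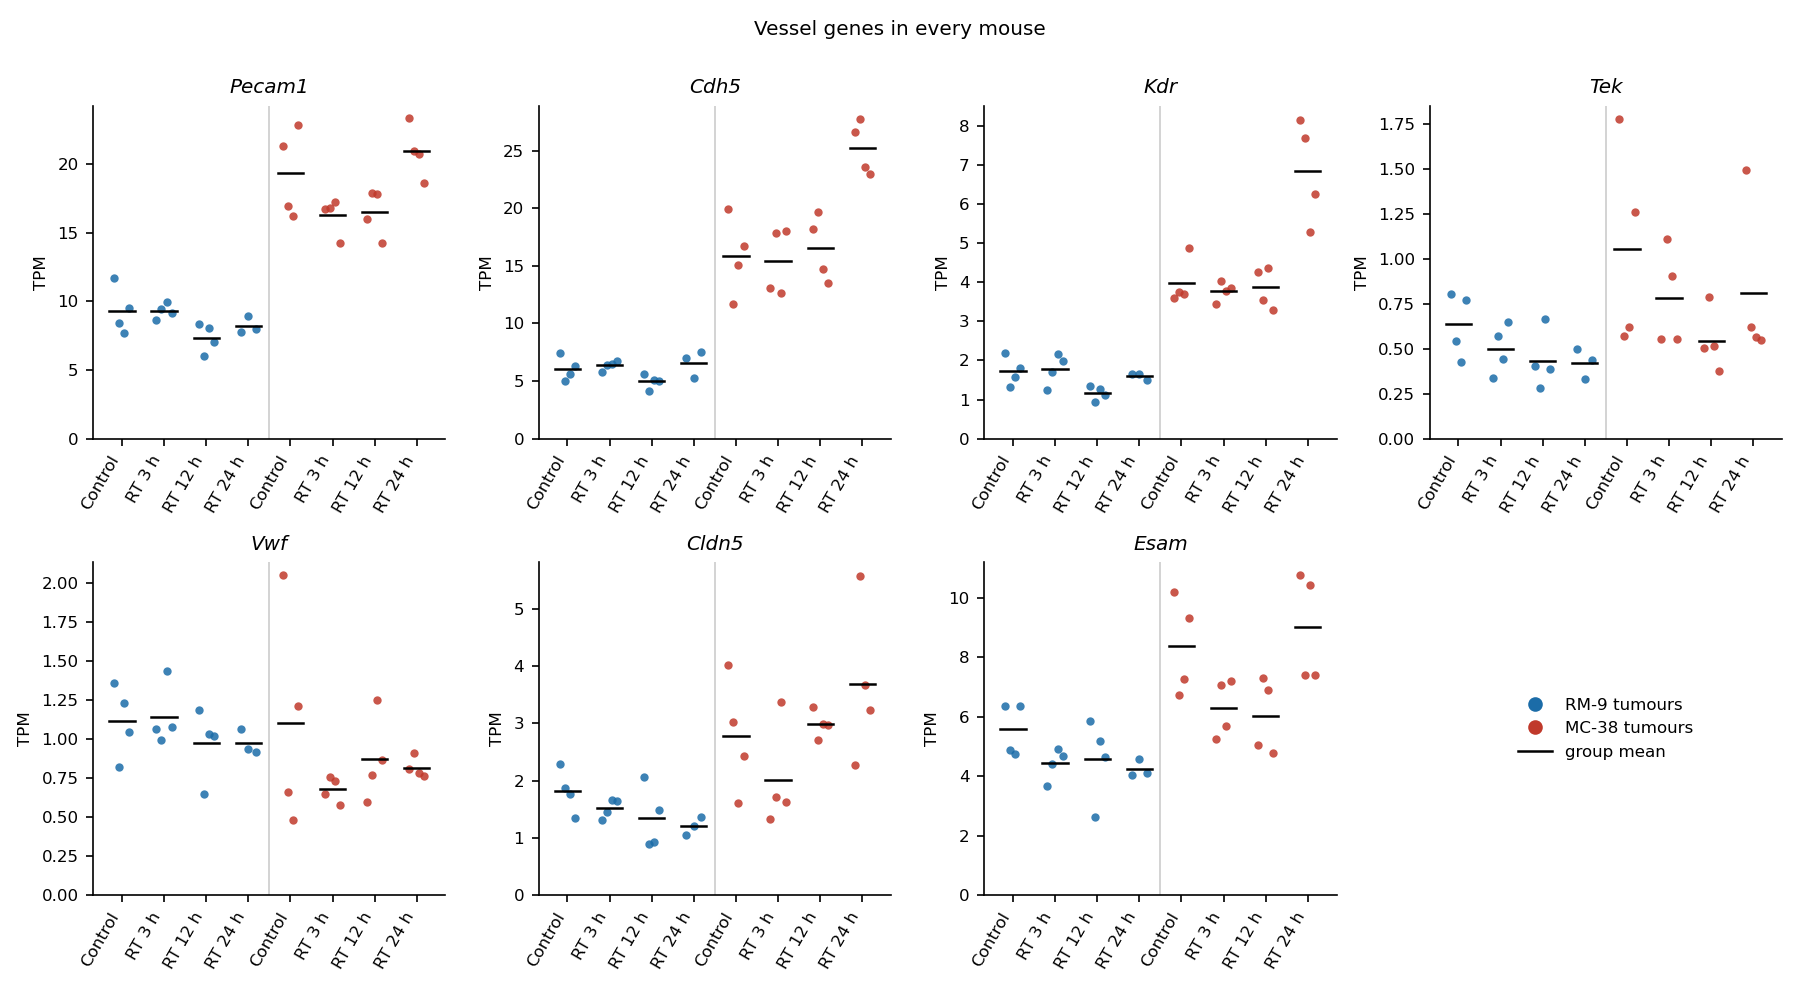
TPM of the 7 vessel genes in every mouse of the 8 groups; dots are mice, blue for RM-9 and red for MC-38, and bars are group means. Cdh5 and Kdr at RT 24 h in MC-38 lie above all controls of that model, and the other 5 genes overlap with theirs.

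Sele in MC-38 averaged 0.301 ± 0.132 TPM in Control and 0.406 ± 0.117, 0.521 ± 0.230 and 0.654 ± 0.279 TPM at 3, 12 and 24 h (SD, n = 4 each), and passed at no time. At 24 h the mice were at 0.477, 0.659, 0.435 and 1.05 TPM, and only the 0.435 of mouse 3 was below the highest control (0.461). The log2 difference was 0.51 ± 0.21 (limma, adjusted p = 0.119). The highest MC-38 value, 1.05 TPM, was below the lowest RM-9 value of the series, 2.69 TPM. Selp was at 1.36 ± 0.98, 0.927 ± 0.300, 0.869 ± 0.260 and 1.34 ± 0.82 TPM in the same order and overlapped throughout.

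**Figure D4:**
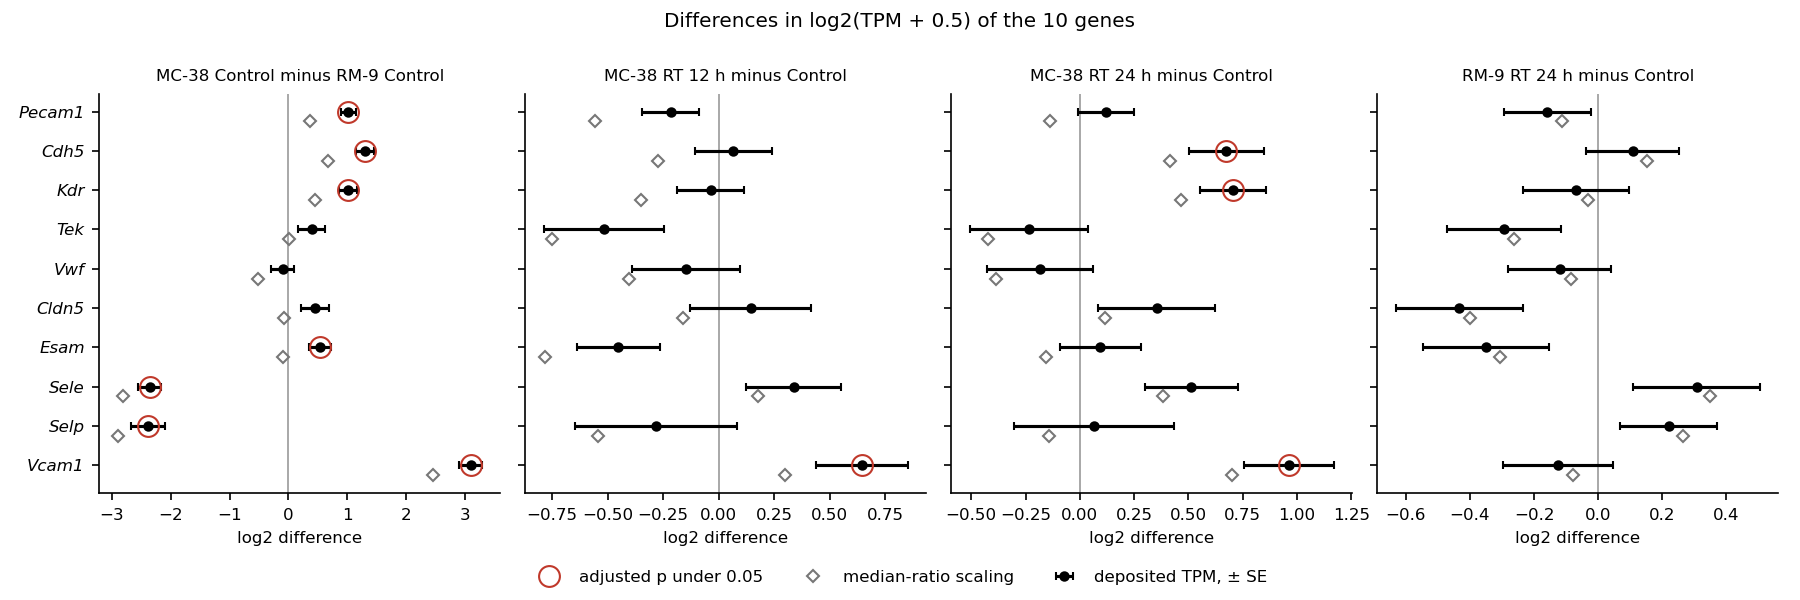
Log2 differences of the 10 genes in 4 comparisons; black dots are differences of mean log2(TPM + 0.5) in the deposited values with SE, red rings mark an adjusted p under 0.05, and grey diamonds are the same differences after median-ratio scaling. The horizontal axes differ between panels; Vcam1, Cdh5 and Kdr are ringed at 24 h in MC-38, where all grey diamonds lie to the left of the dots.

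Whether a change after RT differed between the models was tested as an interaction in 1 fit of all 31 libraries. Vcam1 was the only 1 of the 10 genes to pass, with a change that was higher in MC-38 by 0.96 ± 0.27 at 12 h and by 1.09 ± 0.28 at 24 h (limma, adjusted p = 0.00891 and 0.0423). All genes passed at a rate of 45.4% at 12 h and 1.81% at 24 h. At 3 h the value was 1.04 ± 0.27 (adjusted p = 0.343), and 0% of all genes passed, with 1519 at an unadjusted p under 0.05. After median-ratio scaling the 3 values were 0.91, 0.44 and 0.84 at 3, 12 and 24 h, and none passed (adjusted p = 0.291, 0.453 and 0.205), where 0.0263%, 2.84% and 1.59% of all genes did. At 24 h Vcam1 lost its call in 9 of the 15 fits that left out 1 mouse, namely RM-9 Control 1, 2 or 4, any RM-9 RT 24 h mouse, MC-38 Control 1 or 4, or MC-38 RT 24 h mouse 4 (adjusted p = 0.0583 to 0.107), and also without the libraries rich in muscle RNA (0.86, adjusted p = 0.332). Kdr at 24 h was at 0.77 ± 0.22 (adjusted p = 0.0556).

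The adhesion genes were also compared relative to Pecam1, which asks whether they changed per unit of vessel RNA. In MC-38, Vcam1 per 100 TPM of Pecam1 went from 303 ± 90 in Control to 580 ± 147, 536 ± 30 and 547 ± 188 at 3, 12 and 24 h (SD, n = 4 each). On the log2 scale these were differences of 0.94, 0.86 and 0.84, with exact permutation p = 0.0286, 0.0286 and 0.0571 (two-sided). After adjustment over the 18 tests, of 3 genes in 6 comparisons, the p-values were 0.171, 0.171 and 0.257 (exact permutation), and none of the 18 passed. Sele per Pecam1 in MC-38 at 3 h differed by 0.42 (exact permutation p = 0.0286, adjusted 0.171), and in RM-9 the 9 values lay between -0.34 and 0.51. The values depended on the vessel gene chosen. Relative to Cdh5, Vcam1 in MC-38 differed by 0.74, 0.58 and 0.29 (exact permutation p = 0.0286, 0.0286 and 0.486), and Sele at 3 h by 0.22 (exact permutation p = 0.457). Sele at 24 h was at 0.39 relative to Pecam1 and at -0.16 relative to Cdh5, and none of the 18 tests against Cdh5 passed after adjustment either.

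Some pairs of vessel genes varied together across mice, and others, in MC-38 above all, did so little or not at all. The lowest Pearson's r of log2 levels in MC-38 were 0.01 for Tek and Cldn5, 0.05 for Kdr and Vwf and 0.16 for Cldn5 and Esam. Those for Cdh5 and Vwf (0.18) and for Kdr and Tek (0.19) came next. The highest values follow. Over the 15 RM-9 libraries Pearson's r of log2 levels was 0.85 for Kdr and Pecam1 and 0.78 for Kdr and Cdh5, and over the 16 MC-38 libraries it was 0.80 for Pecam1 and Esam and 0.79 for Kdr and Cdh5. In RM-9 Esam ran against Sele (-0.61) and Selp (-0.57). In MC-38 Selp ran with Tek (0.78), Pecam1 (0.72) and Vwf (0.68). These are descriptions, since libraries of all 4 groups entered, and a library's mitochondrial share moves all its genes together.

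The genes most like these were sought among 12249 others by the smaller of the 2 within-model correlations. For the mean of the 7 vessel genes they were Tie1, the partner receptor of Tek (0.88), Igfbp7 (0.80), Sox18 (0.79), Eng (0.77) and Rasip1 (0.77), of which all but Igfbp7 stood on the list of endothelial genes. For Vcam1 they were Ccl5, a chemokine of T cells and monocytes (0.83), the interferon-induced Gbp5 (0.72) and Mov10 (0.71). For Sele they were Ehd4 (0.70), Lmo7 (0.64) and Fam71f1 (0.62), and for Selp Mapre3 (0.68), Nacc2 (0.57) and Amigo1 (0.55). No endothelial gene of the list was among those for the 3 adhesion genes.

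Muscle RNA moved with some of the genes in MC-38. Over the 16 MC-38 libraries the correlation with the log2 muscle sum was 0.76 for Tek, 0.68 for Selp and 0.64 for Esam, against 0.14 for Vcam1 and 0.05 for Kdr. The 5 libraries over 1000 TPM had a median Tek of 1.26 TPM and Selp of 2.03 TPM, and the other 11 had 0.564 and 0.743 TPM. In RM-9 Selp ran the other way (-0.46) and Tek was at 0.50. Muscle has vessels of its own, and the part of muscle RNA in the values of the 10 genes was not tested.

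**Figure D5:**
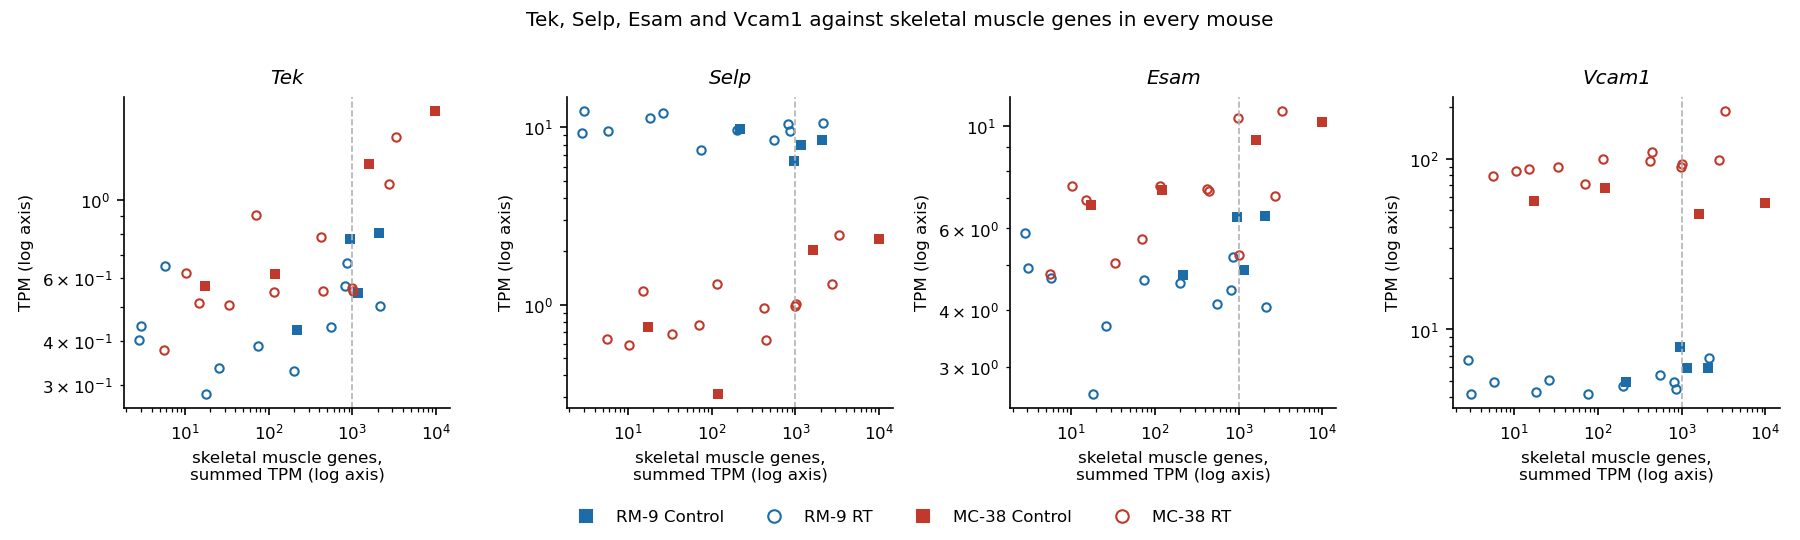
TPM of Tek, Selp, Esam and Vcam1 against the summed TPM of 6 skeletal muscle genes (both log axes) in every mouse; filled squares are Control and open circles irradiated mice, blue for RM-9 and red for MC-38, and the dashed line is 1000 TPM. In MC-38 the mice with the most muscle RNA have the highest Tek and Selp, and Vcam1 shows no such order.

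Of 26 further endothelial genes, 24 were tested between the control groups. In MC-38, 18 were higher and 2, the VEGF receptor Flt1 and the transcription factor gene Sox7, were lower (named after their values were seen). Of all genes, 64.7% were higher and 10.7% lower. The median log2 difference of the list was 0.87 against the 0.63 of all genes. After median-ratio scaling 5 were higher and 3 lower, where 33.4% of all genes were higher and 32.2% lower. After RT, none passed in RM-9 at any time. In MC-38, 0, 1 and 5 of 25 were higher at 3, 12 and 24 h and none lower, where 28.5% and 13.2% of all genes were higher at 12 and 24 h, and the median was 0.19 at 24 h where all genes had 0.22. Those at 24 h included Mmrn2, an endothelial matrix protein (0.97), Ecscr, an endothelial surface receptor (0.75), and Robo4, which steadies vessel barriers (0.55; limma, adjusted p = 0.00177, 0.00442 and 0.0170). After median-ratio scaling 2 of them passed, Mmrn2 (0.73) and Ecscr (0.49), where 7.81% of all genes were higher. At 12 h 2 of the list, Clec14a (-0.86) and Cd93 (-0.81), were then lower, as were 9.82% of all genes. Mmrn2 was also the gene called at 12 h in the deposited values (0.52), and the other 2 at 24 h were Eng (0.65), a TGF-beta co-receptor, and S1pr1 (0.57), a receptor that tightens junctions.

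Among 11 vascular growth factors, 6 were higher in MC-38 at 12 h and 3 at 24 h, none lower at either time, where 28.5% and 13.2% of all genes were higher. In RM-9, 1 gene, Vegfb, was lower at 12 h (-0.38; limma, adjusted p = 0.0374), and after median-ratio scaling it was at -0.17 and did not pass (adjusted p = 0.492). Angpt2, the Tek ligand that endothelial cells store and release on activation, went from 4.73 ± 0.51 TPM in MC-38 Control to 8.79 ± 0.92 TPM at 24 h (SD, n = 4 each; log2 difference 0.83, limma, adjusted p = 0.00132). Its receptor Tek did not pass at that time. After median-ratio scaling Angpt2 was at 0.59 (limma, adjusted p = 0.00228) and was the only growth factor of the list called at 24 h, where 7.81% of all genes were higher. At 12 h none was then higher and 1, Pdgfb (-0.66), was lower, where 6.32% of all genes were higher and 9.82% lower. In the deposited values the other 2 called at 24 h were the lymphatic growth factors Vegfc (0.86) and Figf (VEGF-D; 0.68).

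Of 19 genes for leukocyte adhesion partners, which are other endothelial ligands, leukocyte integrins and enzymes that make selectin ligands, 18 were tested in MC-38 and 17 in RM-9. In MC-38, 0, 3 and 5 were higher and 0, 4 and 0 lower at 3, 12 and 24 h. In RM-9 2 of the 17, the integrin genes Itgb7 (-0.47) and Itgal (-0.63), were lower at 12 h, as were 1163 of all 14013 genes. No others of the list passed in RM-9. After median-ratio scaling none of the list passed in RM-9. Of all genes in MC-38, 28.5% and 13.2% were higher and 2.59% and 0.548% lower at 12 and 24 h. Among the 4 lower at 12 h in MC-38 were Itga4 (-0.59; limma, adjusted p = 0.0422), a subunit of the Vcam1 receptor, and Itgb2 (-0.54), the shared subunit of the integrins that bind Icam1. With them fell Fut4 (-0.49), a fucosyltransferase of selectin ligands, and the junction gene F11r (-0.57). Higher at 12 h were the E-selectin ligands Glg1 (0.60) and Cd44 (0.62) and the sialyltransferase gene St3gal4 (0.49), and those at 24 h included Cd44 (0.69), St3gal4 (0.58), Jam3 (0.92) and Icam1. Icam1 is a ligand of the leukocyte integrins Itgal and Itgam, and whole tumor RNA does not tell which cells carried it. In MC-38 Icam1 went from 10.7 ± 2.03 TPM in Control to 17.3 ± 2.61, 13.04 ± 2.16 and 27.6 ± 5.81 TPM at 3, 12 and 24 h (SD, n = 4 each). Its log2 difference at 24 h was 1.33 (limma, adjusted p = 0.000406). After median-ratio scaling Icam1 was at 1.07 at 24 h (limma, adjusted p = 0.00726). Under that scaling 0 of the list were higher and 8 lower at 12 h, where 6.32% of all genes were higher and 9.82% lower. At 24 h 4 of the list were higher, as were 7.81% of all genes. Thus Icam1 kept its call at 24 h under that scaling, which Vcam1 did not.

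A list of 14 NF-kB responsive genes was included because Sele and Vcam1 are known targets of that factor. In MC-38, 1, 9 and 12 of the 14 were higher at 3, 12 and 24 h and none lower. Of all genes, 28.5% and 13.2% were higher at 12 and 24 h. In RM-9 none of the 13 tested passed, where 0.228%, 8.37% and 0% of all genes did at 3, 12 and 24 h. The RM-9 median of the list at 24 h was 0.41 where all genes had -0.04 (0.44 after median-ratio scaling). Of the 13, 6 then had an unadjusted p under 0.05 (limma), as did 681 of all 14013 genes. Those called in MC-38 at 24 h included Il6 (1.82), the chemokine gene Ccl2 (1.22) and the inhibitor gene Nfkbie (0.93), with limma adjusted p = 0.000287, 0.00116 and 0.00114. After median-ratio scaling 0, 1 and 9 were higher, and 1 was lower at 12 h. Of all genes under that scaling, 6.32% and 7.81% were higher at 12 and 24 h, and 9.82% were lower at 12 h. Between the control groups 13 of the 14 were higher in MC-38, with a median of 1.82 (12 and 1.24 after scaling), where 64.7% of all genes were higher (33.4% after scaling), as was Vcam1 and unlike Sele.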

How the data were processed

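The authors isolated total RNA from 31 tumors with an RNeasy kit and prepared stranded poly(A) libraries. Per the labels' processing notes, bcl2fastq 2.17 was used and the build was GRCm39; the aligner and the program that made the tables are not given in the sources used here. The coordinates in the files matched GENCODE M21, which is on GRCm38: all 45137 gene identifiers in common were placed alike by chromosome, and 91.1% also by start or by end. One table per library was deposited, with TPM as the measure used here. FPKM was deposited beside TPM, and coverage was deposited as read depth per base; their ratio, with 75 bases per read, gave the depth of 21400000 to 29400000 reads per library and the estimated reads per gene. The files hold no counts, so no counting error could be given, and the lowest TPM values are the least precise. Rows that repeat a gene within a library, 9 to 23 per library, were summed.

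Groups came from the sample labels. Values were taken as log2(TPM + 0.5) and fitted with limma 3.58.1 in R 4.3.3 (lmFit, eBayes with a trend), 1 fit per model and 1 fit of all libraries for the baseline and interactions. The test took genes averaging 0.5 TPM or more, with Benjamini-Hochberg adjustment over all of them and a threshold of 0.05. Log2 differences on this scale understate those of low genes. All 10 genes passed this filter except Sele in MC-38, which was kept. Single genes and ratios to Pecam1 were compared by exact permutation of mice (scipy 1.17.1), two-sided, and the 18 ratio tests were adjusted together. Median-ratio scaling divided each library by its median ratio to the geometric mean over genes above 0 in all libraries. The fits were tested on simulated data.

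The 10 genes and the gene lists were chosen with earlier results of these data known. All 10 were named. From each list, names were taken from the 3 genes with the smallest limma p in any comparison within a model. Flt1, Sox7, Csf1r, Csf3r and the list genes given beside a count of 5 or fewer were named after their values were seen. Alternatives were other pseudocounts and filters, 2 other scalings, single mice left out, only 2 groups per fit, a replicate block, eBayes without a trend, Dunnett's comparisons and, added after seeing the data, leaving out libraries over 1000 TPM of skeletal muscle genes. The lists were further endothelial genes, vascular growth factors, leukocyte adhesion partners, NF-kB responsive, lymphatic, pericyte and smooth muscle, fibroblast, platelet, macrophage, neutrophil, skeletal muscle and p53 target genes. Each library came from a separate mouse, as labelled. One gene of the lists is not reported here by name.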

Additional observations from a re-analysis of the deposited data

Results flagged for a closer look

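Within groups of 4 mice, 70 sets of values of the 10 genes were examined for a mouse whose gap to its nearest neighbour took up most of the group's range, and 5 had such a mouse. Chance flags about 1 in 20 groups. The mice were MC-38 Control 4 with Kdr at 4.89 TPM, MC-38 RT 24 h mouse 1 with Tek at 1.496 TPM and with Vcam1 at 191 TPM, RM-9 RT 3 h mouse 3 with the lowest Vcam1 of its group at 4.19 TPM, and RM-9 RT 12 h mouse 1 with the highest of its group at 6.62 TPM. MC-38 RT 24 h mouse 1 carried 3308 TPM of skeletal muscle genes, the most of its group.

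In the deposited values the change of Vcam1 after RT differed between the models, by 0.96 on the log2 scale at 12 h and by 1.09 at 24 h (interaction in limma, adjusted p = 0.00891 and 0.0423). Of all genes, 45.4% and 1.81% passed at these times. After median-ratio scaling the values were 0.44 and 0.84, and neither passed (adjusted p = 0.453 and 0.205). At 24 h the call held in 6 of the 15 fits that left out 1 mouse. In MC-38 Vcam1 was higher than in Control in 4 of 4 mice at either time, and in RM-9 the irradiated mice overlapped with their controls.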

How the results depend on the processing

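With the replicate block the counts of genes called were the same as without it in every comparison (7 between the control groups, 1 and 3 in MC-38 at 12 and 24 h). The mouse numbers do not pair the samples: deviations of mice with the same number had a median correlation of -0.073 in MC-38 and -0.061 in RM-9. In RM-9, Dunnett's comparisons on TPM called 1 gene at 3 h, Selp, where limma called 0. In MC-38 at 12 h the count went from 1 to 0 without a filter on low values, with Dunnett's comparisons and without the muscle-rich libraries, and was 0 to 2 with single mice left out. With TPM rescaled without mitochondrially encoded genes it stayed at 1, but Vcam1 lost its call (0.51, adjusted p = 0.0988) and Esam was called, as lower (-0.59, adjusted p = 0.0494). At 24 h the count of 3 became 0 with median-ratio scaling and 0 with only the 2 groups in the fit. Of the interactions, the count of 1 at 12 h became 0 with median-ratio scaling and 0 with TPM rescaled without mitochondrially encoded genes. At 24 h it became 0 with either scaling, a pseudocount of 0.1, no filter or no muscle-rich libraries, 2 with a pseudocount of 1, and 0 to 2 with single mice left out. Esam between the control groups was the called value that turned over, to -0.083 (not called) under median-ratio scaling. Over all genes, median-ratio scaling moved the number called from 32 to 383 in RM-9 at 3 h, 1173 to 19 at 12 h, 10 to 101 in MC-38 at 3 h, 4875 to 2535 at 12 h, and 6975 to 432 in the 12 h interaction. The causes were not tested, beyond the scalings taking out the shift of the median gene. The counts at 12 and 24 h in RM-9, at 3 h in MC-38 and of the interaction at 3 h were 0 under every alternative run, and Sele, Selp, Vcam1, Cdh5 and Kdr between the control groups passed in the same direction in all of them. Sele in MC-38, at 7 to 54 estimated reads per library, is limited by depth. No control mice of the 12 h or 24 h age were analysed here, and all 3 times share 4 controls.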

Other observations

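Lymphatic endothelium was marked by 4 genes, of which 3 were tested. At 24 h in MC-38 2 of them were higher, as were 13.2% of all genes. Lyve1, a hyaluronan receptor that some macrophages also carry, went from 2.59 ± 0.43 TPM in Control to 9.68 ± 4.09 TPM (SD, n = 4 each; log2 difference 1.64, limma, adjusted p = 0.0158), and Flt4, the VEGF-C receptor, from 1.08 ± 0.22 to 2.63 ± 1.11 TPM (0.94, adjusted p = 0.0108). Both passed after median-ratio scaling as well (1.40 and 0.74, adjusted p = 0.0391 and 0.0274). Lyve1 also passed at 12 h (1.11, adjusted p = 0.0480), which it did not after scaling (0.79, adjusted p = 0.209). None of the list passed in RM-9. The summed TPM of the 4 genes was 9.69 to 14.01 in MC-38 Control and 19.3 to 29.3 at 24 h. This sum includes Pdpn, which averaged 8.33 TPM in Control and 12.6 TPM at 24 h and did not pass (limma, adjusted p = 0.0616). Pdpn averaged 35.8 TPM in RM-9 Control.

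Of the pericyte and smooth muscle genes, which mark cells wrapped around vessels, Rgs5 fell in MC-38 at 12 h, by 1.07 on the log2 scale (11.7 ± 4.4 TPM in Control, 5.20 ± 1.63 TPM at 12 h; SD, n = 4 each; limma, adjusted p = 0.0132). After median-ratio scaling it was at -1.40 (adjusted p = 0.0128). At 24 h it was at 7.94 ± 1.54 TPM and did not pass (adjusted p = 0.207). In RM-9 Notch3, a pericyte receptor, was the gene of the list that passed at 3 h, at 0.807 ± 0.265 TPM in Control and 1.99 ± 0.36 TPM at 3 h (SD, n = 4 each; log2 difference 0.95, adjusted p = 0.0323; 0.88 and 0.00861 after median-ratio scaling).

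Some macrophage genes were called lower after RT, 4 of 6 in RM-9 at 12 h and 5 and 1 of 6 in MC-38 at 12 and 24 h. None passed at 3 h in either model or at 24 h in RM-9. Of all genes, 1163 of 14013 were lower in RM-9 at 12 h, and 2.59% and 0.548% in MC-38 at 12 and 24 h. After median-ratio scaling the macrophage counts were 0, 6 and 4, where 6 of 14006 genes, 9.82% and 8.14% were lower. C1qb, a complement gene of tissue macrophages, was at -0.92 in RM-9 and -1.56 in MC-38 at 12 h (adjusted p = 0.0312 and 0.00497), and the gene called in MC-38 at 24 h was Csf1r, the macrophage growth factor receptor (-0.88, adjusted p = 0.0202). In the deposited values no platelet, neutrophil or skeletal muscle gene passed in any comparison within a model. In RM-9 at 24 h 0% of all genes passed. An unadjusted p under 0.05 (limma) was then found for 2 of the 4 platelet genes tested and for 681 of all 14013 genes. The median of the platelet genes was then 0.36 where all genes had -0.04. In MC-38 at 24 h, 2 of the 5 neutrophil genes tested had an unadjusted p under 0.05 (limma), as did 4786 of all 15699 genes. After median-ratio scaling these were 0 of the neutrophil genes and 4699 of all 15710 genes. Their median was 0.65 where all genes had 0.22 (0.46 after scaling). After median-ratio scaling 1 neutrophil gene, Csf3r, was lower in MC-38 at 12 h (-0.92, adjusted p = 0.0169). Among the 6 fibroblast genes 1, Pdgfra, was higher in MC-38 at 12 h (0.92, limma, adjusted p = 0.0118), as were 28.5% of all genes. The median of the 6 then lay the other way, at -0.33 where all genes had 0.33 (-0.68 for the 6 after median-ratio scaling). After median-ratio scaling Pdgfra was at 0.59 (adjusted p = 0.0316).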
